A study of Rattus norvegicus with 3 samples.

Results

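Reactive astrocyte response genes are genes whose transcripts accumulate when astrocytes respond to injury or inflammation. A set of 10 was followed here by gene symbol: Serpina3n, Lcn2, Cd44, Osmr, Steap4, Cp, Tm4sf1, Emp1, Gbp2 and Srgn. Of these, 9 were matched among 30957 gene rows, and all 9 passed a minimum mean of 1 FPKM (fragments per 1000 bases of gene and per 1000000 fragments). Serpina3n was not matched by its symbol, so its level is not given here and only its promoter was searched. The samples are motor cortex from 3 Sprague-Dawley males, numbered 19, 35 and 70, after cerebral ischemia and reperfusion, in which blood flow to the brain is interrupted and then restored. Each rat gave 1 mRNA library. All carry the label of 8 weeks, which does not say whether it is an age or a time after the operation. The rats form 1 group with no control samples here, so the comparison is between single animals, no test applies, and a level can be called high or low only against the other rats.

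Astrocytes are the glial cells that buffer ions, take up transmitters and ensheathe the outside of the vessels of the brain. After injury they enlarge and switch on a set of shared genes, which in mice has been divided into pan-reactive genes, genes raised mainly after systemic endotoxin (often called A1) and genes raised mainly after ischemia (often called A2). Lcn2, Cd44, Osmr, Steap4 and Cp stand in the first set, Gbp2 and Srgn in the A1 set, and Tm4sf1 and Emp1 in the A2 set. Many of these genes are also active in leukocytes, fibroblasts or vessel cells, so in whole tissue their level is not that of astrocytes alone.

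Rat 35 stood apart from the other rats in its cell type markers, and every result given here should be read beside this difference. All 8 neuronal markers were lowest in rat 35, and their summed level was 1298, 53.7 and 1754 FPKM in rats 19, 35 and 70, the order used for all sets of 3 values. All 9 markers of microglia and macrophages were highest there (summed 343, 1258 and 211 FPKM), as were the 6 fibroblast and meningeal markers at 1 FPKM or more (summed 265, 2781 and 255 FPKM), where Col1a2 is listed at 0 in all 3 libraries. Of 12 astrocyte identity markers, 9 were lowest in rat 35 and none was highest there, with a median deviation from the gene mean of 0.45, -0.70 and 0.46 on the log2(FPKM + 1) scale. Beside these marker counts, 45.4% of all genes with a mean of 1 FPKM or more were highest in rat 35. The share of all genes lowest in rat 35 is not given here. In such bulk tissue, fewer cells of a type and less RNA per cell cannot be told apart. Transcripts of the 37 mitochondrial genes made up 31.7%, 19.0% and 26.2% of the summed FPKM, and so were also lowest in rat 35. The part that these markers and the mitochondrial share have in the levels of the reactive genes was not tested.

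All 9 measured genes were highest in rat 35, against 45.4% of the 14134 genes with a mean of 1 FPKM or more. In all 9 the highest rat also exceeded the lowest by over 2-fold on the log2(FPKM + 1) scale, as it did in 42.5% of all genes. The summed level of the 9 genes was 142, 484 and 93.1 FPKM. The median deviation of the 9 genes from their own means was -0.60, 0.88 and -0.88, while that of all genes was 0.02, 0.06 and -0.09. In rat 35 the single genes deviated by between 0.56 and 1.94. Without rat 35 the median in rat 70 was -0.196, and without rat 70 that in rat 35 was 0.58. The lower 2 places were not shared by all: rat 70 was lowest for Cd44, Osmr, Tm4sf1, Emp1, Gbp2 and Srgn (44.2% of all genes were lowest in rat 70), an order that 33.6% of all genes had, and rat 19 was lowest for Lcn2, Steap4 and Cp, an order that 11.8% had.

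**Figure D1:**
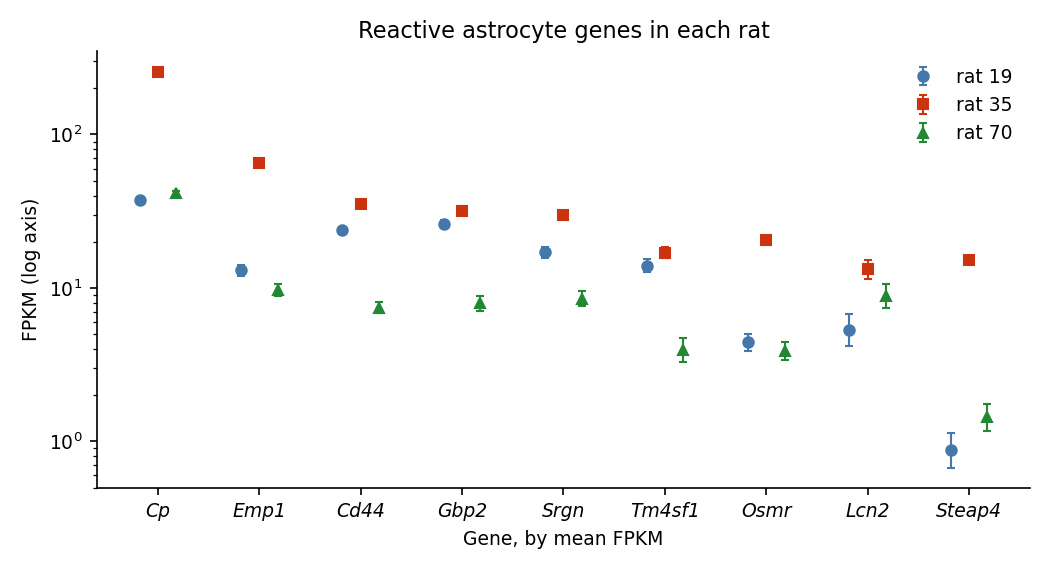
FPKM (log axis) of the 9 genes in rats 19, 35 and 70, ordered by mean; each point is 1 rat and each bar is its exact 95% Poisson interval, which covers counting error only. The squares of rat 35 are the highest point for every gene, from 13.3 FPKM for Lcn2 to 257 for Cp.

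The counting error behind these values was small beside the distances between rats. FPKM values of a gene were whole multiples of 1 fragment, and the lengths so recovered ran from 889 bases for Lcn2 to 4910 for Cd44. The values rest on 61 fragments (Steap4 in rat 19) to 16651 fragments (Cp in rat 35). For each gene the rats were set in order and each was compared with the next, which gives 18 ratios with exact 95% intervals. One interval, that of Osmr between rats 19 and 70, held 1 (ratio 1.14, 0.94 to 1.39). With 1 library per rat, these intervals say nothing of the spread between pieces of tissue from 1 animal.

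In 4 genes, Steap4, Cp, Emp1 and Osmr, rat 35 was more than 2-fold above both other rats, which held for 10.3% of all genes. Rats 19 and 70 lay within 2-fold of each other in all 4. Steap4 and Cp both serve metal handling, since the STEAP4 protein is a membrane reductase of iron and copper and ceruloplasmin is the copper-bearing oxidase that readies iron for transport.

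Cp (chromosome 2, 104744461 to 104799853, Rnor 6.0, plus strand) was at 37.1, 257 and 41.4 FPKM (112 ± 126, SD, n = 3). It was the most abundant of the 9 genes in each rat, and in rat 35 it exceeded 98.4% of the genes at 1 FPKM or more, against 84.9% and 86.7% in the other rats. The level of rat 35 was 6.92-fold that of rat 19 and 6.21-fold that of rat 70, while rats 19 and 70 differed by 1.11-fold (1.05 to 1.18).

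Steap4 (chromosome 4, 23090029 to 23135354, minus strand) was at 0.88, 15.1 and 1.44 FPKM (5.82 ± 8.08, SD, n = 3). It had the widest range of the set, 17.3-fold between rats 35 and 19. In rats 19 and 70 it was the least abundant of the 9 genes, above 1.92% and 8.28% of genes, and in rat 35 it was above 61.4%. Its counting intervals were 0.67 to 1.13 FPKM in rat 19 and 1.17 to 1.74 FPKM in rat 70, so the lower rats were close but did not overlap.

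Emp1 (chromosome 4, 169147243 to 169181966, plus strand), which encodes a small membrane protein of epithelial and other cells, was at 13.0, 64.8 and 9.69 FPKM (29.2 ± 30.9, SD, n = 3). Rat 35 was 4.98-fold above rat 19 and 6.69-fold above rat 70. In rat 35 it was second only to Cp among the 9 genes.

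Osmr (chromosome 2, 56110777 to 56151531, minus strand), which encodes the receptor chain for the cytokine oncostatin M, was at 4.43, 20.5 and 3.88 FPKM (9.61 ± 9.45, SD, n = 3). Rat 35 was 4.63-fold above rat 19, and the lower rats could not be separated at their depth.

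In Cd44, Gbp2 and Tm4sf1 the gap lay elsewhere: rats 19 and 35 were both high and rat 70 was low. These 3 genes were more than 2-fold higher in rat 19 than in rat 70, as were 6.11% of all genes. Srgn lay between the patterns.

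Cd44 (chromosome 3, 92696313 to 92783658, minus strand), the cell surface receptor for hyaluronan and osteopontin, was at 23.8, 35.3 and 7.44 FPKM (22.2 ± 14.0, SD, n = 3). Rats 19 and 35 were both high, and rat 70 was low. Rat 19 was 3.21-fold above rat 70, and rat 35 was 1.48-fold above rat 19 (1.39 to 1.57).

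Gbp2 (chromosome 2, 248276709 to 248293784, plus strand), an interferon-induced GTPase gene, was at 26.2, 31.6 and 7.96 FPKM (21.9 ± 12.4, SD, n = 3). Tm4sf1 (chromosome 2, 147382866 to 147392062, minus strand), a membrane protein gene much used by endothelium, was at 14.0, 16.9 and 3.93 FPKM (11.6 ± 6.82, SD, n = 3). Their levels differed, but the step between the higher rats was nearly the same, with rat 35 above rat 19 by 1.206-fold for Gbp2 and 1.213-fold for Tm4sf1. Rat 70 was below rat 19 by 3.29-fold for Gbp2 and 3.56-fold for Tm4sf1.

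Srgn (chromosome 20, 32120320 to 32139789, minus strand), the proteoglycan core of secretory granules in blood cells and endothelium, was at 17.1, 29.8 and 8.51 FPKM (18.5 ± 10.7, SD, n = 3). The steps were nearly even, 1.75-fold from rat 19 to rat 35 and 2.01-fold from rat 70 to rat 19. On the log2(FPKM + 1) scale the second step was under 2-fold.

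Lcn2 (chromosome 3, 11414186 to 11417546, minus strand), which encodes a secreted protein that binds iron-carrying siderophores, was at 5.35, 13.3 and 8.90 FPKM (9.17 ± 3.96, SD, n = 3). It had the narrowest range of the set, 2.48-fold, with even steps: rat 70 was 1.66-fold above rat 19 (1.24 to 2.25) and rat 35 was 1.49-fold above rat 70 (1.18 to 1.88). It rests on 74, 194 and 127 fragments, and after Steap4 it has the lowest count of the set in rat 19.

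**Figure D2:**
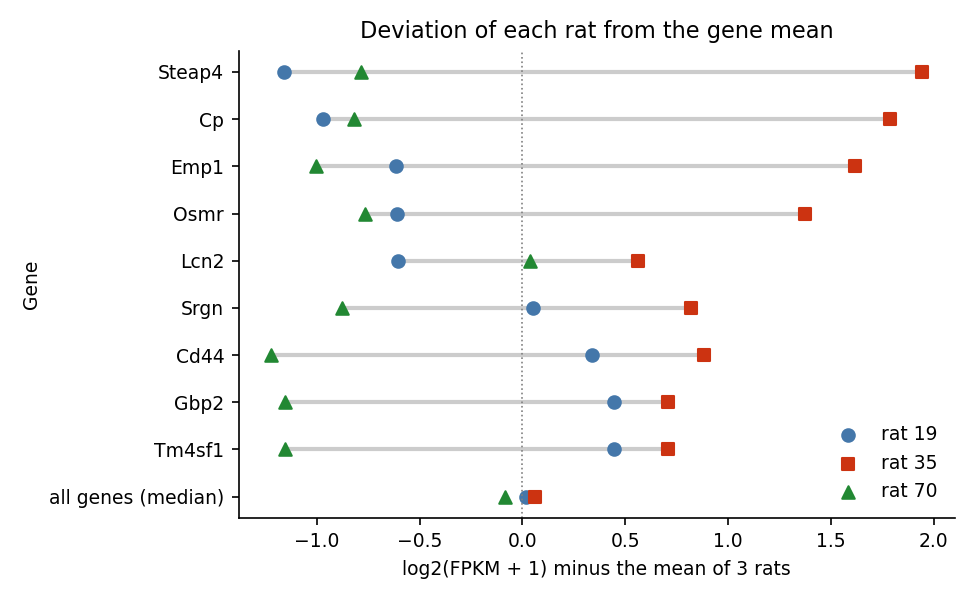
Deviation of each rat from the 3-rat mean of log2(FPKM + 1) for the 9 genes and for the median of all 14134 genes; each point is 1 rat. In the upper 4 genes rat 35 stands alone (Steap4 at 1.94), in Gbp2 and Tm4sf1 rats 19 and 35 lie at 0.45 and 0.71 and rat 70 at -1.16, and the median of all genes stays between -0.09 and 0.06.

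How far each pattern rests on 1 animal was described by leaving out the rat whose absence narrowed the range of that gene most. That narrowing was fixed by the values above and is no further result. Without rat 35, the range of log2(FPKM + 1) went from 2.76 to 0.15 for Cp, from 2.14 to 0.15 for Osmr, from 3.10 to 0.38 for Steap4 and from 2.62 to 0.39 for Emp1. Without rat 70, it went from 1.86 to 0.26 for both Gbp2 and Tm4sf1, from 2.10 to 0.55 for Cd44 and from 1.70 to 0.77 for Srgn. Without rat 19, that of Lcn2 went from 1.17 to 0.53. Leaving out rat 35 in place of these gave 0.93 for Srgn and 0.64 for Lcn2. With rats 19 and 70 alone, 3 of 9 genes (Cd44, Gbp2 and Tm4sf1) were more than 2-fold apart, where 11.1% of all genes were.

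**Figure D3:**
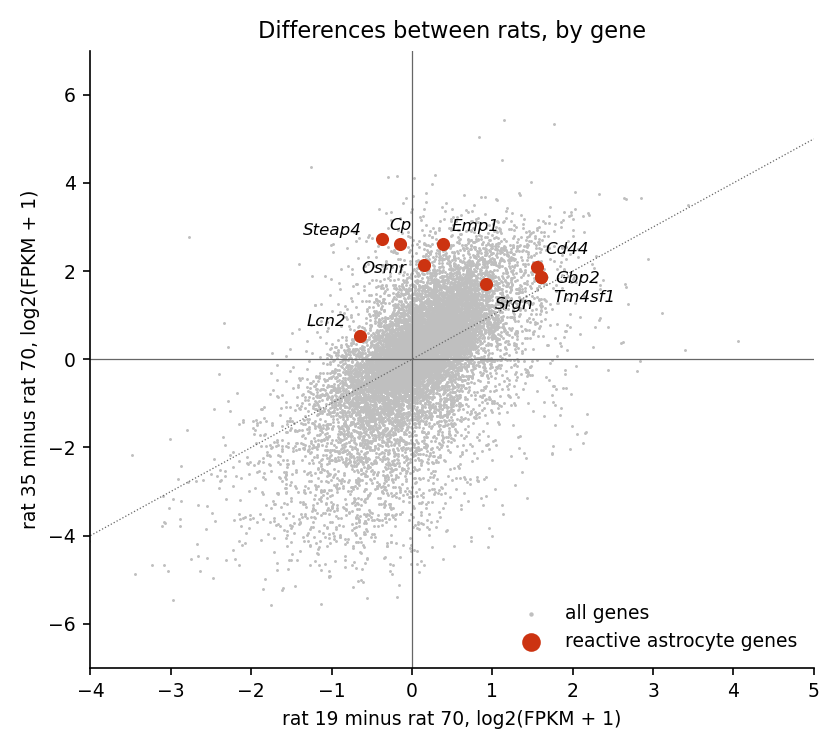
Each point is a gene: the difference in log2(FPKM + 1) between rats 19 and 70 (x axis) and between rats 35 and 70 (y axis), grey for the 14134 genes and red for the 9 reactive genes; on the dotted line rats 19 and 35 are equal. All 9 red points lie above the line and above 0, with Steap4, Cp, Emp1 and Osmr near the vertical axis, Cd44, Gbp2 and Tm4sf1 to the right, and Lcn2 to the left.

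Promoter sequences show what these genes share and do not share before their start sites. All 10 genes, Serpina3n included, were matched by symbol to RefSeq promoters of the build GRCr8, which is not the build of the expression files and is of the BN strain. The 250 bases before the start were searched on both strands for short motifs: the STAT dimer site TTCNNNGAA, the AP-1 site TGANTCA, the interferon response site GAAANNGAA, the NF-kappaB site GGANTTTCC and the C/EBP site TTGCNNAA. The 4 promoters printed here are those of the genes with a STAT or AP-1 match and a measured level, and capitals mark every match to any of the 5 motifs.
Steap4, chr4:27054770-27055019, minus strand: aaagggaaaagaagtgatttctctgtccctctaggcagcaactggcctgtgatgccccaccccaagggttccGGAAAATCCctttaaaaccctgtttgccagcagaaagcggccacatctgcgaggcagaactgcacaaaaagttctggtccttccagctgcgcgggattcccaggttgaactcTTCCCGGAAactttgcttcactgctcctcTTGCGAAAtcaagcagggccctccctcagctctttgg
Emp1, chr4:169943980-169944229, plus strand: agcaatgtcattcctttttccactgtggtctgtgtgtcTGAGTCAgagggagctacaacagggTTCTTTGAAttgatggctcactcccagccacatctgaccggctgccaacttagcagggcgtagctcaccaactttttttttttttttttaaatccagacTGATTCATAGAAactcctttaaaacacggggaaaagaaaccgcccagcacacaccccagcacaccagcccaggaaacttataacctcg
Osmr, chr2:57688562-57688811, minus strand: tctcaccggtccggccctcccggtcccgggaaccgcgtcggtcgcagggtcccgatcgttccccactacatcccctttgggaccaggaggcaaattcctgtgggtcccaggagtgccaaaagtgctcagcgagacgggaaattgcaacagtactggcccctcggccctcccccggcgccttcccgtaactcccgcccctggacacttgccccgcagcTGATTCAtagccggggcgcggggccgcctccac
Gbp2, chr2:234005477-234005726, plus strand: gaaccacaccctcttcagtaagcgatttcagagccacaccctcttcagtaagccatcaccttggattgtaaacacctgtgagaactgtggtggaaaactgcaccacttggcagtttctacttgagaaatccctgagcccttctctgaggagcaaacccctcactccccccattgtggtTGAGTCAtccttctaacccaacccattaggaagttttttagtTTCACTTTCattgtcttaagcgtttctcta

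Emp1 held 2 STAT and 2 AP-1 matches, and 1 of each overlapped, starting 85 and 88 bases before the start. Steap4 held a STAT match 66 bases, a C/EBP match 37 bases and an NF-kappaB match 178 bases before the start. Osmr had a single AP-1 match at 33 bases. In Gbp2, which had the other pattern of rats, the matches were an AP-1 site at 72 bases and an interferon response site at 30 bases. Over all 10 genes, 3 held a STAT match (Serpina3n, Steap4 and Emp1), beside 7.67% of 33469 promoters of the same length. AP-1 matches stood in 3 (6.34% of promoters), C/EBP matches in 3 (Lcn2, Steap4 and Cp; 9.22%), interferon response matches in 2 (Gbp2 and Srgn; 8.12%) and an NF-kappaB match in 1 (Steap4; 1.08%). No match to these letters was found before Cd44 and Tm4sf1. A match describes the letters in this window and was not tied to any binding in these rats.

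Set against astrocyte markers of the same library, the 9 genes stood higher in rat 35 than in the other rats. That order was fixed by the values above and is no further result, since all 9 genes were highest in rat 35 and the marker median was lowest there. The median of the 12 astrocyte markers was 6.14, 5.20 and 6.18 (log2(FPKM + 1)). The median difference of the reactive genes from it was -2.24 in rat 19, -0.25 in rat 35 and -3.02 in rat 70. The median of all genes on the same measure was also highest in rat 35, at -2.61, -1.67 and -2.70. Cp stood above the marker median in rat 35 by 2.81 and below it in rats 19 and 70, at -0.89 and -0.77. Gfap, the filament gene most used as a sign of astrocyte reactivity, had the reverse order of Cp (1878, 564 and 688 FPKM), and the ratio of Cp to Gfap was 0.0198, 0.455 and 0.0601.

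**Figure D4:**
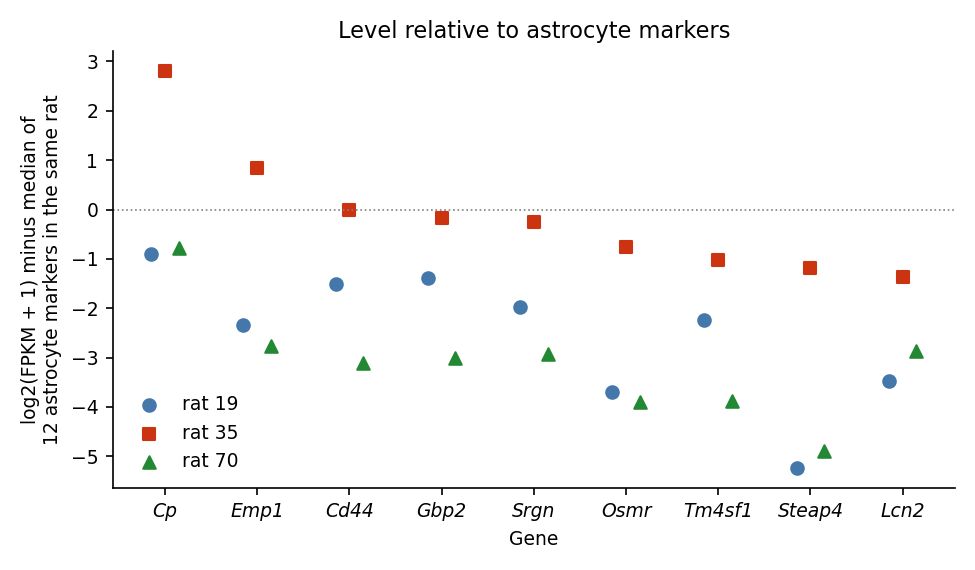
log2(FPKM + 1) of the 9 genes minus the median of 12 astrocyte identity markers in the same rat; each point is 1 rat and the dotted line is the marker median. Rat 35 is highest for every gene, from 2.81 for Cp to -1.36 for Lcn2, which follows from its higher gene levels and lower marker median.

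The wider reactive lists were less uniform than the 9 genes. Of 12 pan-reactive genes, 8 were highest in rat 35. The other 4 were Gfap, the heat shock gene Hspb1 (78.4, 37.7 and 25.7 FPKM), the asparaginase gene Aspg (9.25, 4.57 and 2.58 FPKM) and the chemokine gene Cxcl10 (6.46, 5.68 and 6.21 FPKM), all highest in rat 19, except that Cxcl10 was highest in rat 70 after rescaling to a common sum or by the median of ratios. Leaving out the 5 genes of the set in that list, 3 of 7 were highest in rat 35 (Timp1, Vim and S1pr3), close to the share of all genes. Of 10 A1 genes, 7 were highest in rat 35 and 7 lowest in rat 70, and without Gbp2 and Srgn both counts were 5 of 8, beside 45.4% and 44.2% of all genes. Serping1, the C1 inhibitor gene, was at 83.2, 252 and 59.0 FPKM, and the complement gene C3 at 14.1, 49.4 and 17.3. Of 11 A2 genes at 1 FPKM or more, 8 were highest in rat 35, or 9 after rescaling to a common sum, which moved Ptx3. Without Tm4sf1 and Emp1 it was 6 of 9, beside 45.4% of all genes. Tgm1, one of these, passed the minimum only through rat 35. In that list S100a10 was at 105, 183 and 69.7 FPKM.

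Osmr acts with the shared cytokine receptor chain gp130, encoded by Il6st, and signals through JAK kinases and STAT3. Il6st was at 23.9, 116 and 29.1 FPKM, so that it had the order of Cp, and the ratio of Osmr to Il6st was 0.185, 0.176 and 0.133. The ligand gene Osm was low, at 0.63, 2.26 and 0.18 FPKM, and Lif, Il6 and Il11 stayed under 1 FPKM in each rat. Of 14 genes of this pathway at 1 FPKM or more, 9 were highest in rat 35 (8 of 13 without Osmr), beside 45.4% of all genes. Osm is among the 9 and passed the minimum only through rat 35. Also among them were Jak1 (56.7, 83.4 and 67.0 FPKM), Stat3 (33.9, 54.3 and 32.4) and Socs3, a feedback inhibitor gene (8.19, 14.2 and 4.91). The receptor gene of ciliary neurotrophic factor, Cntfr, had another order, at 28.1, 9.33 and 39.1 FPKM.

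Around Cp and Steap4, 7 of 10 genes of iron and copper handling at 1 FPKM or more were highest in rat 35, beside 45.4% of all genes. After rescaling without mitochondrial genes, which moved Steap2 to rat 70, it was 6, beside 35.7%. Steap1 passed the minimum only through rat 35. The other reductases of the STEAP family were at 0.60, 4.51 and 1.17 FPKM (Steap1), 2.60, 9.25 and 8.01 (Steap2) and 2.25, 6.34 and 1.85 (Steap3). The copper importer gene Slc31a1 was at 13.0, 48.1 and 18.04 FPKM. Transferrin (Tf), made in brain largely by oligodendrocytes, was highest in rat 70 (193, 263 and 439 FPKM), and the transferrin receptor gene Tfrc was at 27.9, 37.0 and 24.6.

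For Lcn2, the receptor gene Slc22a17 had the reverse order of rat 35, at 246, 66.2 and 214 FPKM. Mmp9, whose protein binds lipocalin 2, was at 0.99, 5.97 and 3.53 FPKM, and so had the order of Lcn2. Lrp2, another receptor gene, did not pass 0.21 FPKM in any rat.

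Of 7 genes of CD44 ligands, hyaluronan enzymes and linkers at 1 FPKM or more, 4 were highest in rat 35, beside 45.4% of all genes (3 after rescaling without mitochondrial genes, beside 35.7%). In rat 70, 6 of the 7 were lowest, beside 44.2% of all genes. Spp1, the osteopontin gene, was at 224, 4161 and 126 FPKM, a range of 33.1-fold, and made up nearly all of the list's sum of 4366 FPKM in rat 35. Msn, which links CD44 to actin, was at 36.5, 113 and 23.1 FPKM, while its relatives Ezr (31.0, 26.8 and 18.9) and Rdx (27.9, 26.4 and 38.4) did not share that order. The hyaluronan synthase genes Has1, Has2 and Has3 stayed under 1 FPKM in each rat.

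Gbp2 belongs to the interferon gamma response. Of 7 genes of this list at 1 FPKM or more, 5 were highest in rat 35 and 5 lowest in rat 70, beside 45.4% and 44.2% of all genes. Gbp4 was at 2.37, 1.85 and 0.40 FPKM, with rat 19 highest. Gbp5 had the order of Gbp2 (4.14, 5.14 and 2.31 FPKM). Ifngr1, a receptor gene, was instead at 74.2, 266 and 83.3 FPKM, and the ligand gene Ifng did not pass 0.12 FPKM.

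The relatives of EMP1 and TM4SF1 were highest in rat 35 for 4 of 4 genes at 1 FPKM or more, beside 45.4% of all genes. Emp3 was at 28.2, 109 and 14.2 FPKM and Emp2 at 4.52, 7.47 and 2.23, both in the order of Emp1. Pmp22, a myelin protein gene of the same family, was at 16.7, 31.5 and 21.9 FPKM. Among 7 serpin genes at 1 FPKM or more, 6 were highest in rat 35, beside the same 45.4%. The collagen chaperone gene Serpinh1 was at 91.3, 301 and 56.0 FPKM. Serpini1, which encodes neuroserpin of neurons, was at 51.4, 2.71 and 50.7 FPKM. Serpina3c and Serpina3m, near relatives of Serpina3n, are listed at 0 in all rats.

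Some markers of other cells that use these genes were also highest in rat 35, but not in every list or under every scaling. Of 9 neutrophil markers, 3 reached 1 FPKM, all highest in rat 35, and the summed level was 16.7, 144 and 7.19 FPKM. S100a8 and S100a9 made up most of the sum in rat 35 (39.2 and 77.4 FPKM), while the granule genes Elane, Mpo, Camp and Ngp did not pass 0.22 FPKM in any rat. The mast cell genes Cpa3, Cma1, Tpsb2 and Mcpt4 were at 0.14 FPKM or less, with Fcer1a listed at 0. Kit, the other gene of that list, was at 6.25, 11.4 and 10.8 FPKM, and under the 3 rescalings it was highest in rat 70. Endothelial markers were highest in rat 35 for 5 of 6 genes and lowest in rat 70 for 5 of 6 (summed 163, 251 and 116 FPKM), and under the other scalings 3 or 4 of 6 were highest in rat 35. Of 8 lymphocyte markers, 4 reached a mean of 1 FPKM, all highest in rat 35 and lowest in rat 70 (all 8 summed 11.9, 55.9 and 4.89 FPKM). Beside these neutrophil, endothelial and lymphocyte counts, 45.4% of all genes were highest in rat 35 and 44.2% lowest in rat 70. The lymphocyte genes Cd3g, Cd2 and Nkg7 passed the minimum only through rat 35, so their count there was partly set by the filter. Cd8a alone was at 6.30, 46.4 and 4.22 FPKM, and the other 7 listed genes summed to 5.62, 9.52 and 0.67 FPKM. The part of these cells in the levels of Lcn2, Srgn, Cd44, Gbp2 and Tm4sf1 was not tested.

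**Figure D5:**
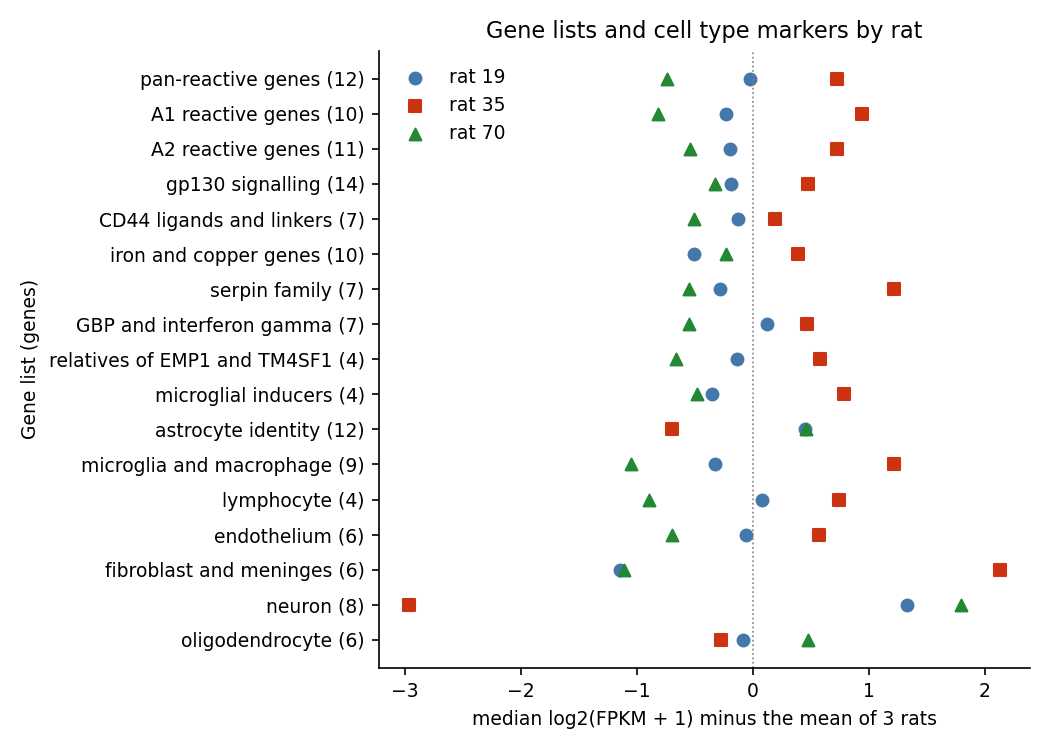
Median deviation from the 3-rat mean of log2(FPKM + 1) for gene lists and cell type markers with at least 4 genes at 1 FPKM or more (number of genes in brackets); each point is 1 rat. Rat 35 is highest for the reactive lists (0.72 for pan-reactive, 0.94 for A1 and 0.72 for A2 genes), for microglia (1.21) and fibroblasts (2.13), and lowest for astrocyte identity (-0.70) and neurons (-2.97). The medians of the 3 reactive lists include 5, 2 and 2 of the 9 genes, all highest in rat 35. Without these, 3 of 7 pan-reactive, 5 of 8 A1 and 6 of 9 A2 genes were highest there, beside 45.4% of all genes.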

How the data were processed

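The deposited FPKM was used unchanged. Per the labels' design text, fragments were counted per gene, normalized by a step not given in the sources used here, and turned into FPKM with a Perl script by the authors. The submitters' processing notes list HISAT2 2.0.4, StringTie 1.3.0 and the build Rnor 6.0 but give no roles. Library depth corresponds to 15560000, 16460000 and 16050000 fragments in rats 19, 35 and 70.

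Differences were computed on log2(FPKM + 1), a scale that understates those of low genes, for the 14134 genes at a mean of 1 FPKM or more. Ratios printed for single genes are of FPKM. For a symbol with several rows, that of highest mean was taken. The value of 1 fragment was read from genes of short span, and a gene's length is the shortest up to 20000 bases that gave whole fragments in 3 rats within 0.005; 14024 of 14071 genes had one. Exact Poisson and binomial intervals (95%) use these fragments and cover counting error only. The fold count and the recovery were tested on simulated data. Zeros can be failed estimates.

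The 10 genes, the other lists and the settings were chosen with earlier results of these data known. Named are all members, in other lists the genes their roles turn on and those of highest mean or largest SD, and the 3 genes closest to each member in pattern; other list members were chosen after their values were seen, and a few genes named by this rule are left unreported here. Alternatives were a pseudocount of 0.1, other FPKM minima, 3 rescalings, a 3-fold threshold, a shorter astrocyte list and leaving out each rat. Python 3.11.15, numpy 2.4.6, pandas 2.3.3, scipy 1.17.1 and matplotlib 3.10.9 were used.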

Additional observations from a re-analysis of the deposited data

How the results depend on the processing

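With 3 rats kept, the order of the rats was the same for each of the 9 genes under the 3 rescalings, the alternatives that can change it (27 of 27 cases). The number of genes over 2-fold apart stayed at 9, or 8 at a 3-fold threshold, where 22.9% of all genes passed. Leaving out 1 rat gave between 3 and 8 genes over 2-fold apart: 3 without rat 35, 5 without rat 70 and 8 without rat 19. The share of all genes fell as well, from 42.5% to 11.1%, 26.0% and 37.2% in these settings. The number highest in rat 19 ranged from 0 to 6 and in rat 70 from 0 to 3, the upper values without rat 35. In that setting 57.8% of all genes were highest in rat 19 and 42.2% in rat 70, a split close to that of the 9 genes. The median deviation in rat 19 changed sign without rat 35 (0.196, from -0.60), and it ranged from -0.58 to 0.196 on leaving out a rat, while that in rat 35 ranged from 0.58 (without rat 70) to 1.05 and that in rat 70 from -1.05 to -0.196 (without rat 35). Against astrocyte markers without S100b, Gfap and Aqp4, the median in rat 35 was 0.13 in place of -0.25, and in rats 19 and 70 it was -1.15 and -2.28. The share of all genes highest in rat 35 was 35.7% after rescaling without mitochondrial genes, against 45.4%. No paired analysis was possible because the rats form 1 group. Lcn2 and Steap4 have the fewest fragments, 74 and 61 in rat 19, which limits their precision there.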

Other observations

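Some reactive genes outside the set had other orders of the rats. Fkbp5, a chaperone gene induced by glucocorticoids, was at 11.6, 33.1 and 41.5 FPKM in rats 19, 35 and 70, and Amigo2, a cell adhesion gene of the same A1 list, at 2.18, 3.69 and 7.14, both highest in rat 70. Of the A2 list, Ptgs2, the inducible cyclooxygenase gene, was lowest in rat 35 (8.49, 3.26 and 8.73 FPKM). The transglutaminase gene Tgm1 had the pattern of Steap4 at a lower level (0.46, 6.39 and 0.87 FPKM), and the transporter gene Slc10a6 was at 1.47, 8.14 and 3.44. The complement genes C1qa, C1qb and C1qc, whose products with Il1a and Tnf can induce the A1 state in cultured astrocytes, were between 195 and 761 FPKM in every rat, while Il1a was at 0.51, 1.93 and 0.04 and Tnf at 0.99, 2.23 and 0.52.

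Genes most like each member were taken as those with the smallest distance between their deviations over the 3 rats, among 9518 named genes at a mean of 5 FPKM or more. Tm4sf1 and Gbp2 were each other's closest gene, at a distance of 0.00033 (log2), nearer than any other gene to either. This closeness depends on the pseudocount of 1: with 0.1, an alternative added after the data were seen, their distance was 0.083, and 1 gene was nearer to Tm4sf1 and 6 were nearer to Gbp2. With the pseudocount of 1, next to both were Gal3st4 (0.051) and Tpcn2 (0.058). Cp was closest to Ctsk (29.5, 202 and 32.2 FPKM), Lilrb4 and Pf4, and Emp1 to Htra3, Fam46c and Tgfbr1. Osmr was closest to Myof, Sgsh and Rai14, Cd44 to Tmem256, Pdpn and Thbd, Srgn to Tap2, Efnb1 and Tmsb4x, and Lcn2 to Ep300 and Sun2. Steap4 had no gene within 0.1, the closest being Adam12 (1.97, 27.1 and 3.18 FPKM), Ccl2 and Mgst2, whereas Srgn had 36 genes within that distance. With 3 rats, such closeness is a description of these libraries.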
